A study of Mus musculus with 11 samples.

Results

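The complement and coagulation genes described here are 39 genes, 16 of complement and 23 of coagulation and fibrinolysis. They were chosen by name: each has at least 1 non-control probe whose accession maps to its RefSeq mouse symbol, and all 39 had one, among 20145 symbols on the array. The set was measured in livers of 11 untreated male mice, each on its own 1-colour (Cy3) Agilent array: 3 β-catΔEx3 mice, 4 β-catΔEx3:Myc mice and 4 WT mice. β-catΔEx3 is a form of β-catenin without the exon that holds the phosphorylation sites for its breakdown, and β-catΔEx3:Myc livers have it together with Myc. All mice shared a hybrid background, mainly B6SJL with a small part of 129S6, and the labels give ages of 22 to 40 days. Exact ages are stated only for the mice of slide 4: the β-catΔEx3 mouse was 30 days old, the β-catΔEx3:Myc mouse 29 and the WT mouse 31. The labels give neither the promoter or Cre that drives the alleles nor whether tumour or surrounding tissue was taken, and the series text counts all 11 livers, WT included, as tumor-bearing. Each array held 1 animal, so p-values measure the spread between these animals.

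Most complement and clotting proteins of the blood are made and secreted by hepatocytes. In complement, the lectin, classical and alternative pathways each build a convertase that cleaves C3 and then C5, after which C5b, C6, C7, C8 and C9 assemble into the membrane attack complex that perforates target membranes. In coagulation, tissue factor with factor VII, or the contact factors, lead through factor X to thrombin, which turns fibrinogen into fibrin. Antithrombin, heparin cofactor II and the protein C system restrain clotting, and plasmin dissolves the clot. Transcription of these genes in hepatocytes is known to rely on liver factors such as HNF4, C/EBP and FOXA.

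Signals are given as log2 processed signal minus the 75th percentile of the same array, so that 0 is that array's upper quartile. That quartile lay between 193 and 304 scanner units, and 47.8% to 52.4% of probes were above background on an array. The number of arrays limits the precision. There were 4 slides. Of these, slide 1 carried 3 WT arrays, slide 2 carried 2 β-catΔEx3 and 2 β-catΔEx3:Myc arrays, slide 3 carried 1 β-catΔEx3:Myc array, and slide 4 carried 1 array of each group, so slide and genotype are partly confounded and WT meets the mutants only on slide 4. Principal component 1 (56.3% of the variance) parted the 7 mutant arrays from the 4 WT arrays. Myc itself measured 2.44, 1.39 and 2.08 in β-catΔEx3 livers, 4.65, 3.13, 2.55 and 4.98 in β-catΔEx3:Myc livers, and 2.30, -0.12, 0.22 and -0.52 in WT livers. It was called higher in β-catΔEx3:Myc than in WT (limma log2 fold change 3.36 ± 0.68 SE, adjusted p = 0.00286), while Myc was not called between β-catΔEx3:Myc and β-catΔEx3 (1.86 ± 0.73, adjusted p = 0.4). Ctnnb1 was not called in any comparison (-0.17 ± 0.15 in β-catΔEx3 and -0.18 ± 0.14 in β-catΔEx3:Myc against WT), and whether its probe, or that of Myc, reports the altered allele was not tested.

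Both mutant groups had lower expression of most complement and coagulation genes than WT, and the median decrease was larger for complement. In β-catΔEx3 against WT, 14 of 16 complement genes and 16 of 23 coagulation genes fell and 1 coagulation gene rose (limma, adjusted p under 0.05), where 15.4% of all 22282 items tested (genes, and transcripts with no symbol) fell and 21.8% rose, 37.2% in all. The median log2 fold change was -1.26 for complement and -0.84 for coagulation, against 0.10 over all items. In β-catΔEx3:Myc against WT, 15 of 16 complement and 15 of 23 coagulation genes fell and 2 coagulation genes rose, where 17.3% of all items fell and 24.8% rose, 42.2% in all. The medians were -1.35 for complement and -0.78 for coagulation, against 0.13 over all items. Scaling by the 75th percentile of probes above background on all arrays brought the share of higher calls among all calls from 58.5% to 42.3% in β-catΔEx3 and from 58.9% to 48.3% in β-catΔEx3:Myc, while 33 of the 39 genes were then called lower in each. All 39 genes passed the filter on dim probes, and 38 were above background on all 11 arrays, the exception being C9. In bulk liver, fewer hepatocytes and less RNA per hepatocyte cannot be told apart.

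In β-catΔEx3 livers, 15 of 16 complement and 18 of 23 coagulation genes lay below every WT liver, as did 18.6% of all items. In β-catΔEx3:Myc livers the numbers were 15 of 16 and 16 of 23, with 17.7% of all items. With slide as a block, which rests the comparison on slide 4, fewer genes were called throughout. In β-catΔEx3, 10 of 16 complement and 7 of 23 coagulation genes were then called lower, against 3.91% of all items (4.25% rose), and in β-catΔEx3:Myc 11 of 16 and 5 of 23, against 4.44% (4.23% rose). The blocked medians were larger in size, -1.63 for complement and -1.24 for coagulation in β-catΔEx3 and -1.70 and -1.09 in β-catΔEx3:Myc. Within slide 4, with 1 array a group and no test, 38 of 39 genes were lower in β-catΔEx3 than in WT and 38 of 39 were lower in β-catΔEx3:Myc than in WT.

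**Figure D1:**
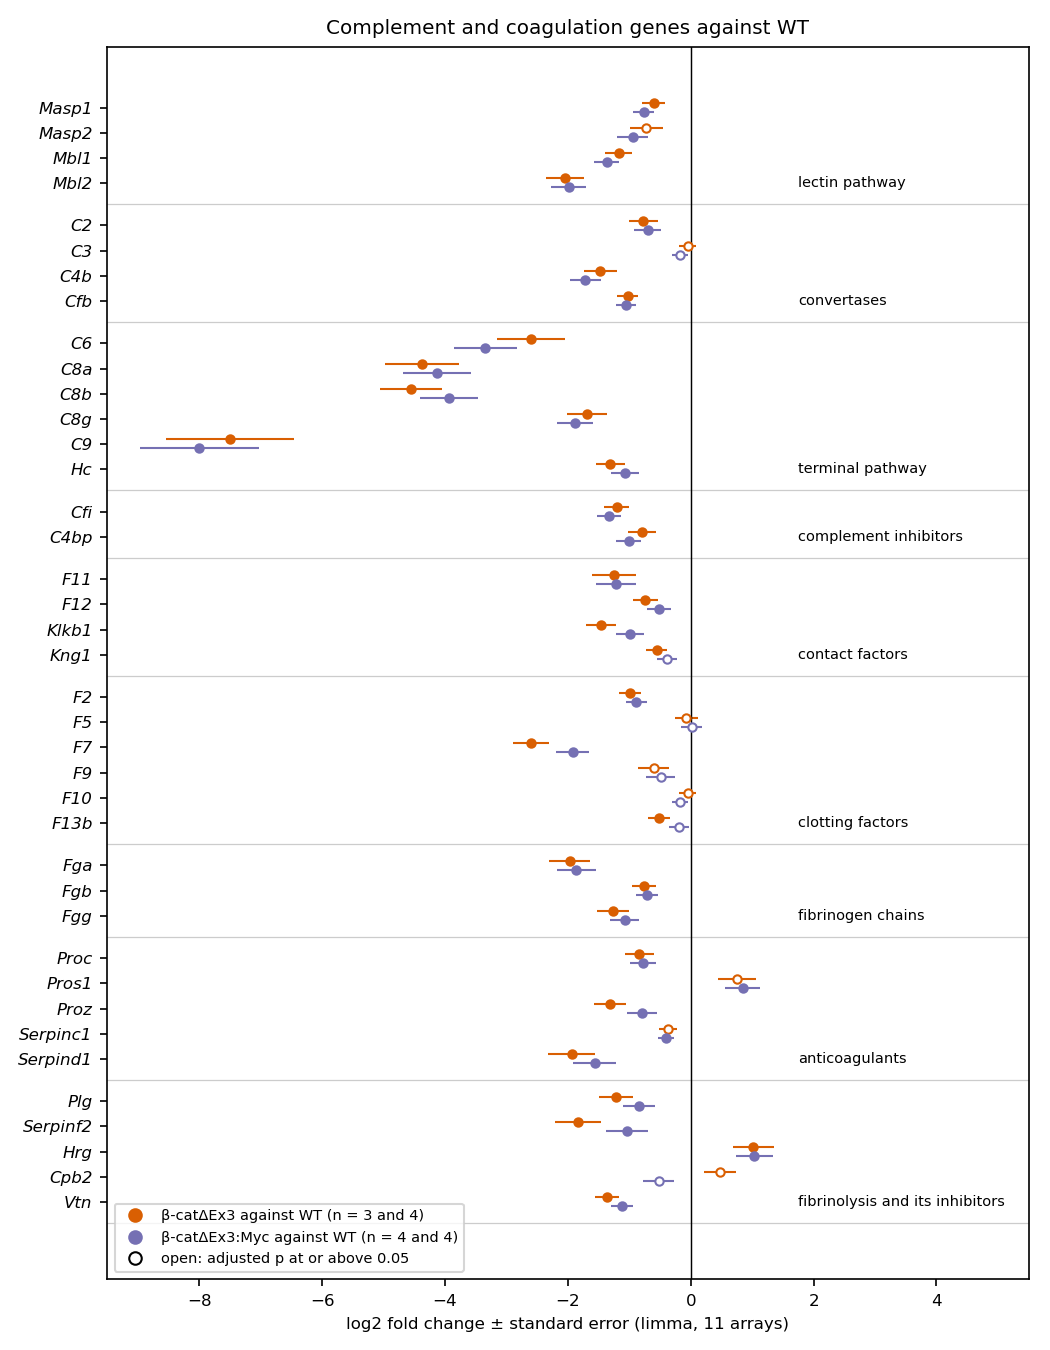
Log2 fold change with its standard error for each of the 39 genes, grouped by role from top to bottom, in β-catΔEx3 against WT (orange) and β-catΔEx3:Myc against WT (purple), from limma over 11 arrays. Filled points passed an adjusted p of 0.05. C9, C8b and C8a lie furthest to the left, and Hrg and Pros1 lie to the right of 0 in both comparisons.

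The terminal pathway, whose products form the membrane attack complex, held the largest decreases. All 6 of its members fell in both mutant groups, with a median log2 fold change of -3.49 in β-catΔEx3 and -3.64 in β-catΔEx3:Myc. C9, which polymerises into the pore, measured -6.00, -3.58 and -4.91 in β-catΔEx3 livers, -6.36, -6.23, -6.44 and -2.29 in β-catΔEx3:Myc livers, and 2.11, 2.31, 1.86 and 4.39 in WT livers. All 4 WT livers were above background for C9, but only 1 of 3 β-catΔEx3 livers and 1 of 4 β-catΔEx3:Myc livers were, so the mutant values lie near the detection limit. The fitted log2 fold change of C9 was -7.50 ± 1.04 in β-catΔEx3 (adjusted p = 0.000531) and -8.00 ± 0.96 in β-catΔEx3:Myc (adjusted p = 0.000167), which is 181-fold and 256-fold lower. Background correction by normexp, which adds an offset of 50 to each signal, gave 19.8-fold and 21.1-fold. Leaving out β-catΔEx3 replicate 1 or replicate 2 gave -6.91 or -8.12, and leaving out β-catΔEx3:Myc replicate 4, the highest of its group, gave -9.01.

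C8 is a complex of 3 chains that inserts the pore into the membrane. Its α chain gene C8a measured 1.54, 1.85 and 0.46 in β-catΔEx3 livers, 1.15, 1.02, 0.93 and 2.97 in β-catΔEx3:Myc livers, and 5.85, 5.21, 4.74 and 6.81 in WT livers. Its β chain gene C8b measured 1.38, 2.81 and 1.43 in β-catΔEx3 livers, 2.78, 2.24, 1.65 and 3.27 in β-catΔEx3:Myc livers, and 6.54, 6.12, 5.63 and 7.42 in WT livers. The mutant and WT ranges were apart by more than 1 log2 unit for both genes. C8a changed by -4.37 ± 0.60 in β-catΔEx3 (adjusted p = 0.000511) and -4.13 ± 0.56 in β-catΔEx3:Myc (adjusted p = 0.000314), that is 20.7-fold and 17.6-fold lower. C8b changed by -4.55 ± 0.51 in β-catΔEx3 (adjusted p = 0.000163) and -3.94 ± 0.47 in β-catΔEx3:Myc (adjusted p = 0.000164), that is 23.5-fold and 15.4-fold lower. The γ chain gene C8g, a lipocalin that joins the complex, had a smaller change: it measured 7.35, 7.85 and 6.42 in β-catΔEx3 livers, 6.55, 6.99, 7.09 and 7.40 in β-catΔEx3:Myc livers, and 8.92, 8.64, 8.78 and 9.23 in WT livers. Its change was -1.69 ± 0.32 in β-catΔEx3 (adjusted p = 0.00262) and -1.89 ± 0.30 in β-catΔEx3:Myc (adjusted p = 0.000733), and the blocked value of C8g in β-catΔEx3 was -2.21 (adjusted p = 0.0631).

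C6, which binds C5b to start the assembly, measured -2.31, -0.17 and -1.38 in β-catΔEx3 livers, -2.0, -2.68, -1.62 and -1.81 in β-catΔEx3:Myc livers, and 0.47, 1.52, 0.75 and 2.52 in WT livers. The highest β-catΔEx3 liver stayed below the lowest WT liver, and the β-catΔEx3 livers spread over more than 1 log2 unit. C6 changed by -2.60 ± 0.56 in β-catΔEx3 (adjusted p = 0.005) and -3.34 ± 0.52 in β-catΔEx3:Myc (adjusted p = 0.000685). Hc, the mouse gene of C5, measured 7.29, 7.69 and 6.91 in β-catΔEx3 livers, 7.69, 7.41, 7.21 and 7.82 in β-catΔEx3:Myc livers, and 8.64, 8.43, 8.32 and 9.02 in WT livers. It changed by -1.31 ± 0.24 in β-catΔEx3 (adjusted p = 0.0022) and -1.07 ± 0.22 in β-catΔEx3:Myc (adjusted p = 0.00328), the smallest decrease of the 6. C7 was not analysed here.

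**Figure D2:**
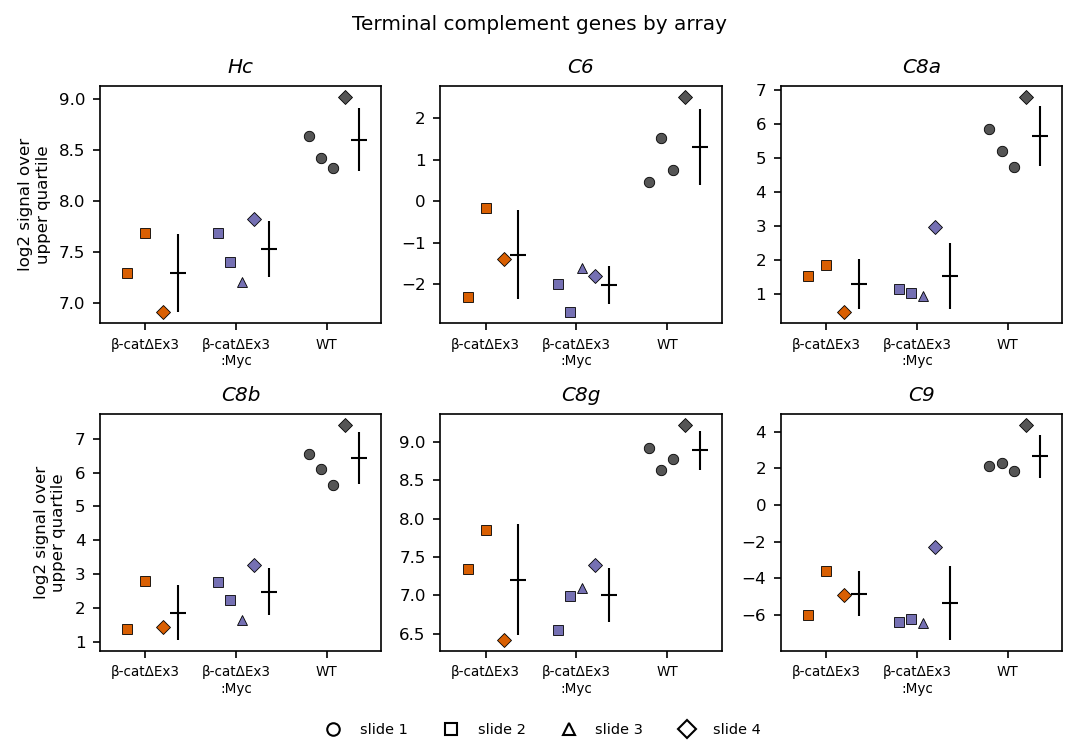
Log2 signal over the array's upper quartile of the 6 terminal complement genes on each array, for β-catΔEx3 (n = 3), β-catΔEx3:Myc (n = 4) and WT (n = 4), with the group mean and SD as bars and the slide as the marker shape. In every panel all 7 mutant arrays lie below all 4 WT arrays, and the WT array of slide 4 is the highest.

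Shown are the 250 bases before the annotated start of the 4 terminal pathway genes with the largest decreases, of F7 and of Hrg. F7 had the largest decrease among coagulation genes in both mutant groups. Hrg was called higher in both, but not with slide as a block. The windows show what letters lie upstream of genes whose fitted changes differed. They are from RefSeq on GRCm38.p6, each written 5′ to 3′ on the gene's strand. Capitals mark a match on either strand to TTGCNNAA (C/EBP), TGTTTNC (FOXA), CAAAGTCCA (HNF4), CTTTGAT (TCF) or CACGTG (E-box, the motif bound by Myc).
C9, chr15:6445096-6445345, plus strand: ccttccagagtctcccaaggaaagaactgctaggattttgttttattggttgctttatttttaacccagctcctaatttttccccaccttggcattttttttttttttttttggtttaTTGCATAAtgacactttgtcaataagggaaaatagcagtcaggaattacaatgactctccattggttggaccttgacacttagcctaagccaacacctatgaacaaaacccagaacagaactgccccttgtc
C8b, chr4:104766067-104766316, plus strand: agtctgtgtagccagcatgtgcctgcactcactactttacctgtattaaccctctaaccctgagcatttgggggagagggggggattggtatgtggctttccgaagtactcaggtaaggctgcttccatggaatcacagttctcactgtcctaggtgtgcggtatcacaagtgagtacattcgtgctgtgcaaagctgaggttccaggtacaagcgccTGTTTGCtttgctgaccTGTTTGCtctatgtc
C8a, chr4:104876399-104876648, minus strand: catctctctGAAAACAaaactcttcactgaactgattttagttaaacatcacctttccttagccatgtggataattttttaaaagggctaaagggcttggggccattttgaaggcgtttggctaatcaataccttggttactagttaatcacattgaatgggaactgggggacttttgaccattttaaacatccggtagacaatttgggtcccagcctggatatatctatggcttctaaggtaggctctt
C6, chr15:4726960-4727209, plus strand: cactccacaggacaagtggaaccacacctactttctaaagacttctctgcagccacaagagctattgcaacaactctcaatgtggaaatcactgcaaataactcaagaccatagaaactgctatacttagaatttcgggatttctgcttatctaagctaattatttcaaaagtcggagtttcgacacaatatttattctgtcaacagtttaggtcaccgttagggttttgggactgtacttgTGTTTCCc
F7, chr8:13025784-13026033, plus strand: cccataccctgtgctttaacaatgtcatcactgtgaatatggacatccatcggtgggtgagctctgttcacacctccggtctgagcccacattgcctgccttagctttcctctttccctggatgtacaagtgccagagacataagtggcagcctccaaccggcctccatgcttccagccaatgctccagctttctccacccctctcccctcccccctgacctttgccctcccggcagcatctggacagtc
Hrg, chr16:22950822-22951071, plus strand: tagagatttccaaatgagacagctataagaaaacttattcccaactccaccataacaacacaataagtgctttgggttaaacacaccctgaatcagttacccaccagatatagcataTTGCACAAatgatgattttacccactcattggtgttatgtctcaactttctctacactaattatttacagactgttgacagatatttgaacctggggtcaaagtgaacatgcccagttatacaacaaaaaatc

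C8b and C8a are neighbours. The C8b window held 2 FOXA matches, 32 and 15 bases before its start, and C8a held 1, 241 bases before its start. The C9 window held 1 C/EBP match 132 bases before the start, and the Hrg window held 1 at 133 bases. Hrg was called in the other direction from C9, but its blocked values were 0.05 in β-catΔEx3 and -0.12 in β-catΔEx3:Myc. None of the motifs was in the F7 window. Of the 31 genes with a window, C/EBP matches were in 8, against 9.56% of the 32851 windows of all genes. FOXA matches were in 9 of 31, against 17.8% of all windows. HNF4 and E-box matches were in 0 of 31 (0.384% and 6.02% of all windows), and a TCF match was in 1, Serpind1 (3.205% of all windows). The letters of the HNF4 and TCF motifs can overlap. A gene was counted if any of its windows matched, while the percentages count single windows, so the counts and percentages are unlike measures. A match describes letters only. C2, C4b, Cfb, Cfi, Masp1, Plg, Proc and Kng1 had no window.

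The lectin pathway fell in 3 of 4 members in β-catΔEx3 and in 4 of 4 in β-catΔEx3:Myc. Mbl2, a mannose-binding lectin that recognises microbial sugars, measured 7.51, 8.19 and 6.60 in β-catΔEx3 livers, 7.21, 7.44, 7.87 and 7.43 in β-catΔEx3:Myc livers, and 9.64, 9.56, 9.44 and 9.28 in WT livers. No mutant liver reached the WT range, and Mbl2 changed by -2.05 ± 0.32 in β-catΔEx3 (adjusted p = 0.000862) and -1.99 ± 0.29 in β-catΔEx3:Myc (adjusted p = 0.000493). Mbl1, the other mannose-binding lectin, changed by -1.18 ± 0.22 in β-catΔEx3 (adjusted p = 0.00239) and -1.37 ± 0.20 in β-catΔEx3:Myc (adjusted p = 0.000516). The proteases that lectins activate had smaller changes. Masp1 changed by -0.60 ± 0.19 in β-catΔEx3 (adjusted p = 0.0282) and -0.77 ± 0.17 in β-catΔEx3:Myc (adjusted p = 0.00528). Its call in β-catΔEx3 was lost without β-catΔEx3 replicates 2 or 3 or WT replicates 2 or 4 (adjusted p from 0.0512 to 0.0936, log2 fold changes -0.63 to -0.51), and both calls were lost with slide as a block (0.146 and 0.0947). Masp2 was at -0.72 ± 0.27 in β-catΔEx3 (adjusted p = 0.0588) and -0.94 ± 0.25 in β-catΔEx3:Myc (adjusted p = 0.0121). In the main fit it thus passed in β-catΔEx3:Myc only, where the blocked adjusted p was 0.0585. In β-catΔEx3 it was called lower with quantile normalization and normexp (limma, adjusted p = 0.0113 and 0.00806). The deposited matrix and the 75th percentile of probes above background on all arrays gave that call too (0.01375 and 0.0185). The mean of its probes ended the call in β-catΔEx3:Myc (0.0521). Without β-catΔEx3 replicate 2, Masp2 passed in β-catΔEx3 too (-0.95, adjusted p = 0.0262).

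Convertase genes fell in 3 of 4 in both mutant groups. C3, the central component, was the exception: it measured 10.78, 10.86 and 10.62 in β-catΔEx3 livers, 10.46, 10.65, 10.77 and 10.66 in β-catΔEx3:Myc livers, and 10.81, 10.72, 10.69 and 10.99 in WT livers. The 3 groups overlapped, and C3 was at -0.05 ± 0.14 in β-catΔEx3 (adjusted p = 0.813) and -0.17 ± 0.13 in β-catΔEx3:Myc (adjusted p = 0.327). C4b, which supplies C4 to the classical and lectin convertase, measured 6.94, 7.73 and 7.35 in β-catΔEx3 livers, 6.51, 7.36, 7.0 and 7.51 in β-catΔEx3:Myc livers, and 8.61, 8.75, 8.73 and 9.16 in WT livers. C4b changed by -1.47 ± 0.27 in β-catΔEx3 (adjusted p = 0.00214) and -1.72 ± 0.25 in β-catΔEx3:Myc (adjusted p = 0.000458), and slide as a block gave -1.62 (adjusted p = 0.074) and -1.84 (adjusted p = 0.0538). The near-identical gene C4a was not analysed here, and its share of the C4b signal is uncertain. Cfb, factor B of the alternative pathway, changed by -1.03 ± 0.17 in β-catΔEx3 (adjusted p = 0.00145) and -1.05 ± 0.16 in β-catΔEx3:Myc (adjusted p = 0.000645). C2, its counterpart in the classical pathway, changed by -0.78 ± 0.24 in β-catΔEx3 (adjusted p = 0.0259) and -0.70 ± 0.22 in β-catΔEx3:Myc (adjusted p = 0.0253). C2 in β-catΔEx3 was not called without β-catΔEx3 replicate 2 (adjusted p = 0.0851) or replicate 3 (0.0738), and C2 in β-catΔEx3:Myc not without β-catΔEx3:Myc replicate 3 (0.0632).

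Of the inhibitors, Cfi, the protease that cleaves C3b and C4b, changed by -1.21 ± 0.21 in β-catΔEx3 (adjusted p = 0.00148) and -1.33 ± 0.19 in β-catΔEx3:Myc (adjusted p = 0.000426). C4bp, which binds C4b for that cleavage, changed by -0.79 ± 0.22 in β-catΔEx3 (adjusted p = 0.0179) and -1.01 ± 0.21 in β-catΔEx3:Myc (adjusted p = 0.00304). Under the slide block, Cfi stayed past the threshold (0.0225 and 0.0224) and C4bp did not (0.116 and 0.0576). C4bp in β-catΔEx3 was also not called without β-catΔEx3 replicate 3 (-0.69, adjusted p = 0.0641). Genes that drive complement and genes that restrain it were thus both lower in the mutant livers.

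Among clotting factors, 3 of 6 fell in β-catΔEx3 and 2 of 6 in β-catΔEx3:Myc. F7, which starts clotting with tissue factor, measured 2.47, 2.20 and 1.44 in β-catΔEx3 livers, 2.39, 2.80, 2.47 and 3.23 in β-catΔEx3:Myc livers, and 4.27, 4.58, 4.70 and 5.02 in WT livers. The highest mutant liver was more than 1 log2 unit below the lowest WT liver, and F7 changed by -2.60 ± 0.29 in β-catΔEx3 (adjusted p = 0.000156) and -1.92 ± 0.27 in β-catΔEx3:Myc (adjusted p = 0.00038), or 6.08-fold and 3.79-fold lower. F2, prothrombin, measured 8.01, 7.96 and 7.83 in β-catΔEx3 livers, 7.69, 8.14, 7.98 and 8.33 in β-catΔEx3:Myc livers, and 8.89, 8.80, 8.77 and 9.23 in WT livers. The mutants were below WT throughout. F2 changed by -0.99 ± 0.18 in β-catΔEx3 (adjusted p = 0.00225) and -0.89 ± 0.17 in β-catΔEx3:Myc (adjusted p = 0.00208), and the blocked adjusted p was 0.0498 in β-catΔEx3 and 0.0632 in β-catΔEx3:Myc. F13b, the carrier subunit of the fibrin cross-linking factor XIII, passed in β-catΔEx3 only (-0.51 ± 0.18, adjusted p = 0.0477) and the call was lost without β-catΔEx3 replicate 3 or β-catΔEx3:Myc replicates 1, 2, 3 or 4 or WT replicates 1, 2, 3 or 4 (adjusted p from 0.0563 to 0.163, log2 fold changes -0.55 to -0.28). Blocking on slide also ended it (-0.93, adjusted p = 0.0697).

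F5, the cofactor of factor Xa, was at -0.07 ± 0.19 in β-catΔEx3 (adjusted p = 0.806) and 0.01 ± 0.18 in β-catΔEx3:Myc (adjusted p = 0.965). F9, the factor missing in haemophilia B, was at -0.60 ± 0.25 in β-catΔEx3 (adjusted p = 0.0847) and -0.49 ± 0.23 in β-catΔEx3:Myc (adjusted p = 0.117). F10, which makes thrombin, was at -0.05 ± 0.14 in β-catΔEx3 (adjusted p = 0.802) and -0.18 ± 0.13 in β-catΔEx3:Myc (adjusted p = 0.298) on its brightest probe. In the main fit these 3 genes passed in neither mutant group, with F5 and F10 close to 0 and F9 at negative values. F9 was called lower in both groups with quantile normalization (limma, adjusted p = 0.0222 and 0.0365) and normexp (0.0307 and 0.0395). The deposited matrix (0.0242 and 0.0411) and the 75th percentile of probes above background on all arrays (0.02665 and 0.0438) did the same. With slide as a block F9 was not called (0.244 and 0.4495). Without β-catΔEx3:Myc replicate 2, F9 passed in both (-0.60, adjusted p = 0.0398, and -0.70, adjusted p = 0.0223). F7 and F10 are neighbours on chromosome 8, with no coding gene between them.

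The contact factors start clotting on charged surfaces. All 4 fell in β-catΔEx3 and 3 of 4 fell in β-catΔEx3:Myc. Klkb1, plasma prekallikrein, measured 5.36, 5.70 and 4.80 in β-catΔEx3 livers, 5.61, 5.61, 5.92 and 5.89 in β-catΔEx3:Myc livers, and 6.74, 6.48, 6.52 and 7.23 in WT livers. Klkb1 changed by -1.45 ± 0.24 in β-catΔEx3 (adjusted p = 0.00138) and -0.99 ± 0.23 in β-catΔEx3:Myc (adjusted p = 0.00561) and kept its call with slide as a block (0.0204 and 0.0371). F11, its neighbour on chromosome 8, changed by -1.25 ± 0.35 in β-catΔEx3 (adjusted p = 0.0186) and -1.22 ± 0.33 in β-catΔEx3:Myc (adjusted p = 0.0123), and was not called without β-catΔEx3 replicate 2 in β-catΔEx3 (-0.92, adjusted p = 0.0693). The slide block ended both F11 calls (-1.96, adjusted p = 0.0935, and -1.89, adjusted p = 0.1), the F12 call in β-catΔEx3:Myc (-1.05, adjusted p = 0.0736) and the Kng1 call in β-catΔEx3 (-0.85, adjusted p = 0.0988). F12, which activates F11, changed by -0.74 ± 0.20 in β-catΔEx3 (adjusted p = 0.0171) and -0.52 ± 0.19 in β-catΔEx3:Myc (adjusted p = 0.048). The call in β-catΔEx3:Myc was lost without β-catΔEx3 replicate 2 or β-catΔEx3:Myc replicates 1, 2, 3 or 4 or WT replicates 1, 2, 3 or 4 (adjusted p from 0.0501 to 0.116, log2 fold changes -0.58 to -0.44). Kng1, high-molecular-weight kininogen, was at -0.56 ± 0.18 in β-catΔEx3 (adjusted p = 0.0299) and -0.39 ± 0.16 in β-catΔEx3:Myc (adjusted p = 0.0784) on its brightest probe. Its call in β-catΔEx3 was lost without β-catΔEx3 replicates 2 or 3 or WT replicate 4 (adjusted p from 0.0696 to 0.0868, log2 fold changes -0.53 to -0.46).

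The 3 fibrinogen chains, neighbours on chromosome 3 and subunits of 1 protein, all fell in both mutant groups. The α chain gene Fga measured 5.36, 5.21 and 4.37 in β-catΔEx3 livers, 4.37, 5.37, 5.74 and 4.90 in β-catΔEx3:Myc livers, and 7.23, 6.96, 7.05 and 6.57 in WT livers. The γ chain gene Fgg measured 9.30, 9.07 and 8.92 in β-catΔEx3 livers, 8.51, 9.64, 9.40 and 9.60 in β-catΔEx3:Myc livers, and 10.34, 10.31, 10.23 and 10.56 in WT livers. The β chain gene Fgb measured 10.37, 9.74 and 10.11 in β-catΔEx3 livers, 9.71, 10.21, 10.29 and 10.24 in β-catΔEx3:Myc livers, and 10.79, 10.79, 10.72 and 11.02 in WT livers. No mutant liver overlapped WT for any chain. Fga changed by -1.97 ± 0.34 in β-catΔEx3 (adjusted p = 0.00154) and -1.86 ± 0.31 in β-catΔEx3:Myc (adjusted p = 0.00109), Fgg by -1.26 ± 0.26 in β-catΔEx3 (adjusted p = 0.00376) and -1.08 ± 0.24 in β-catΔEx3:Myc (adjusted p = 0.00465), and Fgb by -0.76 ± 0.20 in β-catΔEx3 (adjusted p = 0.0123) and -0.72 ± 0.18 in β-catΔEx3:Myc (adjusted p = 0.0093). Under the slide block, only Fga in β-catΔEx3:Myc was called (-1.99, adjusted p = 0.048), and the others had adjusted p from 0.0564 to 0.165.

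Anticoagulants fell in 3 of 5 in β-catΔEx3 and in 4 of 5 in β-catΔEx3:Myc. Serpind1, heparin cofactor II, changed by -1.93 ± 0.38 in β-catΔEx3 (adjusted p = 0.00328) and -1.56 ± 0.35 in β-catΔEx3:Myc (adjusted p = 0.0053). Proz, protein Z, the cofactor of an inhibitor of factor Xa, changed by -1.32 ± 0.26 in β-catΔEx3 (adjusted p = 0.00336) and -0.80 ± 0.24 in β-catΔEx3:Myc (adjusted p = 0.0227). Proc, protein C, which inactivates factors Va and VIIIa, changed by -0.84 ± 0.23 in β-catΔEx3 (adjusted p = 0.0174) and -0.78 ± 0.22 in β-catΔEx3:Myc (adjusted p = 0.0147). Serpinc1, antithrombin, was at -0.37 ± 0.15 in β-catΔEx3 (adjusted p = 0.0708) and -0.40 ± 0.14 in β-catΔEx3:Myc (adjusted p = 0.0354). In β-catΔEx3 it was called lower with quantile normalization, normexp and the deposited matrix (limma, adjusted p = 0.0339, 0.0095 and 0.033). The 75th percentile of probes above background on all arrays gave that call too (0.00726). Its call in β-catΔEx3:Myc was lost without β-catΔEx3:Myc replicates 1, 2 or 4 or WT replicates 1, 2, 3 or 4 (adjusted p from 0.052 to 0.0847, log2 fold changes -0.43 to -0.35). The Proz call in β-catΔEx3:Myc was lost without β-catΔEx3:Myc replicates 2 or 3 or WT replicate 4 (adjusted p from 0.0521 to 0.0602, log2 fold changes -0.77 to -0.72), and the Proc call in β-catΔEx3 without β-catΔEx3 replicate 3 (adjusted p = 0.0564, log2 fold change -0.56). Under the slide block, Proc kept its call (0.0315 and 0.0284), while Serpind1 (0.0513 and 0.0892), Proz (0.0547 and 0.127) and Serpinc1 in β-catΔEx3:Myc (0.0958) did not.

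Pros1, protein S, the cofactor of protein C, was the one anticoagulant with higher values in the mutants. It measured 4.13, 3.54 and 3.29 in β-catΔEx3 livers, 3.26, 4.23, 4.14 and 3.33 in β-catΔEx3:Myc livers, and 2.53, 2.92, 2.79 and 3.34 in WT livers. The groups overlapped, and on slide 4 the 3 arrays were nearly level. Pros1 was at 0.75 ± 0.31 in β-catΔEx3 (adjusted p = 0.0803) and 0.84 ± 0.29 in β-catΔEx3:Myc (adjusted p = 0.0361). The slide block put it at -0.01 in β-catΔEx3 and -0.06 in β-catΔEx3:Myc. Its call in β-catΔEx3:Myc was lost without β-catΔEx3:Myc replicates 2 or 3 or WT replicates 1, 2 or 3 (adjusted p from 0.0701 to 0.1, log2 fold changes 0.68 to 0.85). It was also lost under both other scalings of the processed signal, and with no filter on dim probes (limma, adjusted p = 0.0604). With normexp (0.048) and the deposited matrix (0.0491) it was kept.

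In fibrinolysis, Plg, plasminogen, the precursor of plasmin, changed by -1.21 ± 0.28 in β-catΔEx3 (adjusted p = 0.00686) and -0.85 ± 0.26 in β-catΔEx3:Myc (adjusted p = 0.0225). Serpinf2, α2-antiplasmin, the main inhibitor of plasmin, changed by -1.83 ± 0.37 in β-catΔEx3 (adjusted p = 0.00354) and -1.04 ± 0.34 in β-catΔEx3:Myc (adjusted p = 0.0319). Vtn, vitronectin, which stabilises the inhibitor PAI-1, measured 7.98, 8.10 and 7.35 in β-catΔEx3 livers, 7.99, 8.02, 8.13 and 8.07 in β-catΔEx3:Myc livers, and 9.22, 9.04, 8.98 and 9.42 in WT livers. Vtn changed by -1.36 ± 0.19 in β-catΔEx3 (adjusted p = 0.000612) and -1.11 ± 0.18 in β-catΔEx3:Myc (adjusted p = 0.00086) and kept its call with slide as a block (0.0168 and 0.025). The Serpinf2 call in β-catΔEx3:Myc was lost without β-catΔEx3:Myc replicates 1, 2 or 3 or WT replicates 1, 2, 3 or 4 (adjusted p from 0.0541 to 0.078, log2 fold changes -1.09 to -0.92), and the Plg call there without β-catΔEx3:Myc replicates 1 or 3 or WT replicate 4 (adjusted p from 0.0525 to 0.0605, log2 fold changes -0.81 to -0.64). Blocking on slide left neither Plg call (0.101 and 0.189), and ended the Serpinf2 call in β-catΔEx3:Myc (-1.85, adjusted p = 0.0907).

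Hrg, histidine-rich glycoprotein, which binds plasminogen, heparin and fibrinogen, was the only gene of the 39 called higher in both mutant groups. It measured 9.03, 8.97 and 8.02 in β-catΔEx3 livers, 8.48, 8.93, 9.24 and 8.10 in β-catΔEx3:Myc livers, and 7.73, 7.35, 7.42 and 8.10 in WT livers. On slides 2 and 3 the mutant livers were above all 4 WT livers, while on slide 4 the 3 arrays were within 0.1 of each other. Hrg changed by 1.02 ± 0.33 in β-catΔEx3 (adjusted p = 0.0332) and 1.04 ± 0.31 in β-catΔEx3:Myc (adjusted p = 0.0194). Blocking on slide put Hrg at 0.05 (adjusted p = 0.939) and -0.12 (0.822), so the increase rests on the livers of slides 1 to 3. Under both other scalings of the processed signal the β-catΔEx3 call was lost (limma, adjusted p = 0.062 and 0.055). It was also lost with no filter on dim probes (0.0568). With normexp (0.04845) and the deposited matrix (0.0377) it was kept. The call in β-catΔEx3 was lost without β-catΔEx3 replicates 1 or 2 or WT replicates 1, 2 or 3 (adjusted p from 0.0566 to 0.124, log2 fold changes 0.84 to 1.05), and that in β-catΔEx3:Myc without β-catΔEx3:Myc replicates 2 or 3 or WT replicates 2 or 3 (adjusted p from 0.0525 to 0.0564, log2 fold changes 0.85 to 0.96).

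Cpb2, the carboxypeptidase that slows fibrinolysis, pointed in opposite directions in the mutant groups. It measured 8.88, 8.05 and 8.82 in β-catΔEx3 livers, 8.07, 7.29, 7.78 and 7.19 in β-catΔEx3:Myc livers, and 8.03, 8.03, 7.98 and 8.38 in WT livers. Cpb2 was at 0.48 ± 0.26 in β-catΔEx3 (adjusted p = 0.182) and -0.53 ± 0.24 in β-catΔEx3:Myc (adjusted p = 0.11), so neither passed in the main fit. In β-catΔEx3:Myc it was called lower with quantile normalization (-0.90, limma, adjusted p = 0.0129) and normexp (-0.93, 0.00804). The deposited matrix (-0.84, 0.0202) and the 75th percentile of probes above background on all arrays (-0.66, 0.0462) gave that call too. Without β-catΔEx3 replicate 2 it passed in β-catΔEx3 (0.74, adjusted p = 0.0459), and without β-catΔEx3:Myc replicate 1 it passed in β-catΔEx3:Myc (-0.69, adjusted p = 0.0487). Between the mutants, β-catΔEx3:Myc against β-catΔEx3, it was at -1.0 ± 0.26 (adjusted p = 0.168).

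**Figure D3:**
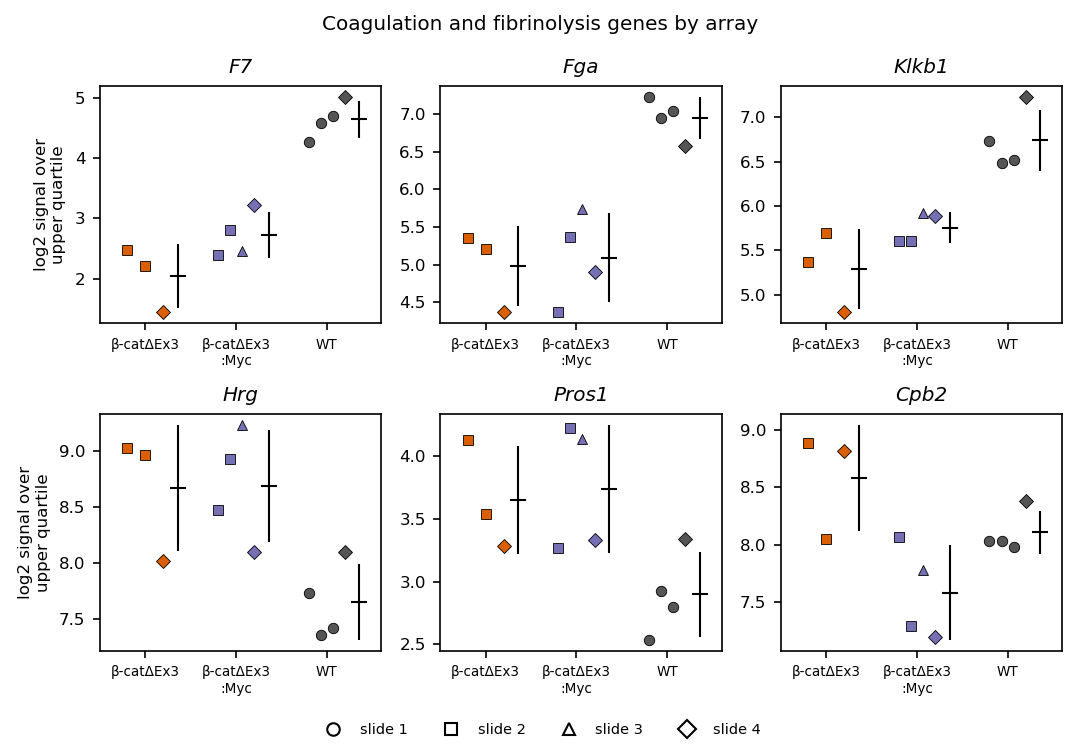
Log2 signal over the array's upper quartile of 6 coagulation and fibrinolysis genes on each array, for β-catΔEx3 (n = 3), β-catΔEx3:Myc (n = 4) and WT (n = 4), with the group mean and SD as bars and the slide as the marker shape. F7, Fga and Klkb1 are lower in all 7 mutant arrays, while for Hrg and Pros1 the arrays of slide 4 lie close together.

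The 2 classes were also compared array by array, taking each gene minus its WT mean and the median over the class. Complement medians were -1.25, -1.02 and -1.58 in β-catΔEx3 livers, -1.36, -1.31, -1.49 and -1.30 in β-catΔEx3:Myc livers, and 0.02, -0.14, -0.22 and 0.34 in WT livers. Coagulation medians were -0.57, -0.75 and -1.09 in β-catΔEx3 livers, -0.81, -0.72, -0.82 and -0.59 in β-catΔEx3:Myc livers, and -0.02, -0.11, -0.10 and 0.26 in WT livers. Complement was below coagulation on all 7 mutant arrays, by -0.68, -0.27 and -0.48 in β-catΔEx3 and -0.55, -0.59, -0.67 and -0.71 in β-catΔEx3:Myc, against 0.04, -0.03, -0.11 and 0.09 in WT. A scaling constant of an array cancels in this difference. It is given as a description, with no test over the genes.

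Part of the distance between the classes lay in the terminal pathway, in a share that differed between arrays. Its 6 genes had medians of -3.87, -2.55 and -3.85 in β-catΔEx3 livers, -3.48, -4.09, -3.83 and -2.90 in β-catΔEx3:Myc livers, and 0.03, -0.28, -0.68 and 1.07 in WT livers. Without them, the other 10 complement genes had medians of -0.68, -0.92 and -1.40 in β-catΔEx3 livers, -1.05, -1.18, -1.0 and -1.11 in β-catΔEx3:Myc livers, and 0.01, -0.08, -0.11 and 0.22 in WT livers. These remained below the coagulation median on each mutant array, by a smaller distance. WT replicate 4, the WT array of slide 4, had the highest median of the WT arrays in both classes.

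**Figure D4:**
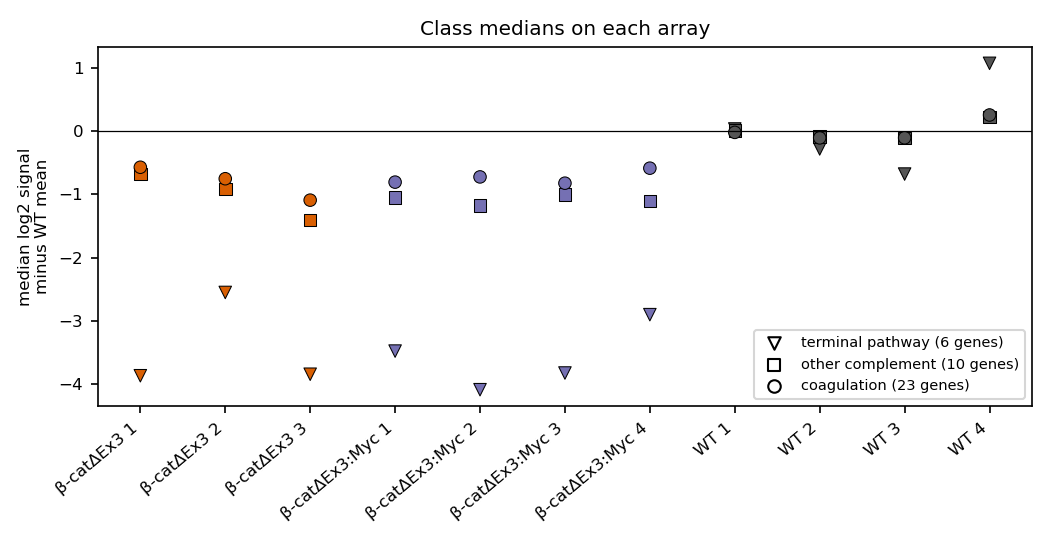
Median over genes of the log2 signal minus the WT mean, on each of the 11 arrays, for the 6 terminal pathway genes (triangles), the other 10 complement genes (squares) and the 23 coagulation genes (circles), coloured by group. Terminal pathway medians lie between -4.09 and -2.55 on the mutant arrays, below both other sets.

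Of the 39 genes, 9 had more than 1 probe, and the values above are those of the brightest. The other probes of C3, C8a, C8g, F7 and Fga gave the same direction and call, and both F5 probes were close to 0 and not called. Adjusted p-values here are over all kept probes. For F10 they disagreed: the dimmer probe was at -1.22 ± 0.27 in β-catΔEx3 (adjusted p = 0.00604) and -0.93 ± 0.25 in β-catΔEx3:Myc (adjusted p = 0.0133), where the brighter probe was flat. For Kng1, the dimmer probe, of another transcript, was at -1.29 ± 0.18 (adjusted p = 0.000535) and -1.04 ± 0.17 (adjusted p = 0.00081). For Masp2, a second probe was at -0.63 ± 0.26 and -1.02 ± 0.24, and the third, of another transcript, at 0.29 ± 0.24 and 0.34 ± 0.22. The exons these probes match were not analysed here, so a difference between transcripts was not tested.

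**Figure D5:**
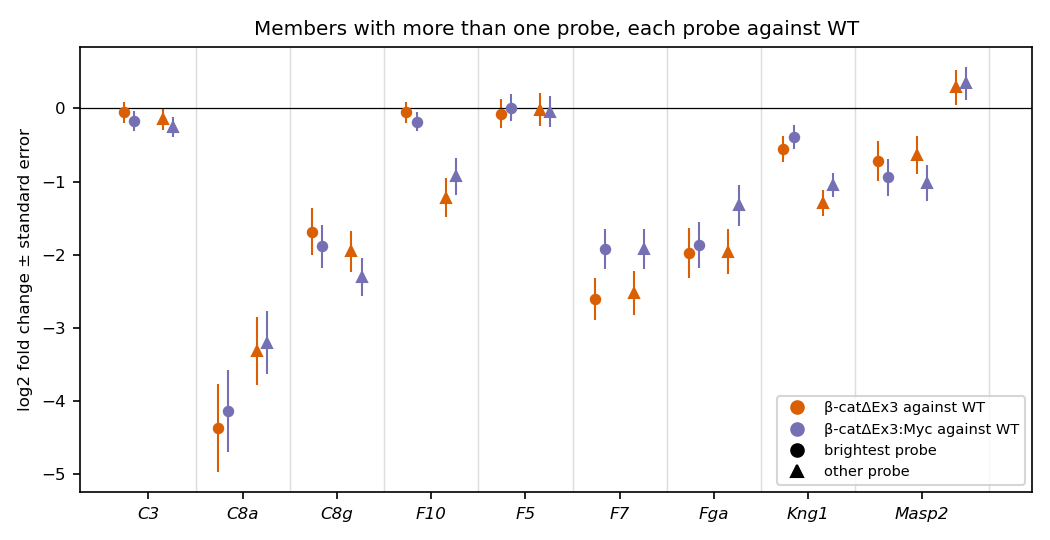
Log2 fold change with its standard error of every kept probe of the 9 genes with more than 1 probe, in β-catΔEx3 against WT (orange) and β-catΔEx3:Myc against WT (purple). Circles are the brightest probe and triangles the others, and F10, Kng1 and Masp2 are the genes with probes on both sides of the threshold in a comparison.

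Between the mutants, β-catΔEx3:Myc against β-catΔEx3, none of the 39 genes was called by limma, where 0.337% of all items were (75 of 22282). At an unadjusted p under 0.05, 2 of the 39 passed, F7 (0.68 ± 0.29) and Cpb2 (-1.0 ± 0.26), as did 10.3% of all items, and 0 of 39 were called under the slide block, where 0.314% of all items fell and 0.512% rose. Complement genes had a median of -0.14, with 11 of 16 below 0, and coagulation genes a median of 0.11, with 20 of 23 above 0. F13b was the 1 gene of the 39 with every β-catΔEx3:Myc liver above every β-catΔEx3 liver, as were 3.59% of all items, and 0 of 39 had every β-catΔEx3:Myc liver below, as did 4.58%. The signs of the whole set changed with the slide: on slide 2, 26 of 39 genes were lower in β-catΔEx3:Myc, and on slide 4, with 1 array each, 33 of 39 were higher. Standard errors for the 39 genes ran from 0.14 to 1.04 log2 units, the largest for C9.

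Of 25 other complement genes tested, 20 fell and 1 rose in β-catΔEx3 (15.4% and 21.8% of all items). In β-catΔEx3:Myc also 20 fell and 1 rose (17.3% and 24.8% of all items). The medians were -1.53 and -1.91. In β-catΔEx3 the 4 largest changes were Colec10 (-4.21 ± 0.62, adjusted p = 0.000685), a collectin, Vsig4 (-3.04 ± 0.58), the complement receptor of Kupffer cells, Fcna (-2.95 ± 0.50), a ficolin, and Cfp (-2.84 ± 0.44), properdin. In β-catΔEx3:Myc they were Colec10 (-3.78 ± 0.57), Fcna (-3.68 ± 0.46), Vsig4 (-3.36 ± 0.53) and C1qa (-2.97 ± 0.41), a chain of C1q. Itgam, a chain of complement receptor 3, named after its values were seen, was the 1 that rose (2.55 ± 0.29 and 1.62 ± 0.27). Itgb2, the other chain of that receptor and also named after its values were seen, went the other way. It was lower in every mutant liver (-2.11 to -1.07) than in every WT liver (-0.54 to 0.45). Several of these genes are made by macrophages. All 7 macrophage markers tested, of which Vsig4 is also among the 25 complement genes, fell in both mutants (medians -3.12 and -3.08). Their summed signal relative to the upper quartile was 21.5 to 62.6 in β-catΔEx3, 18.9 to 70.1 in β-catΔEx3:Myc and 251 to 394 in WT livers. Blocking on slide, 7 of the 25 complement genes fell and 1 rose in each group, and 0 of 7 macrophage markers were called. Of all items, 3.91% then fell and 4.25% rose in β-catΔEx3, and 4.44% fell and 4.23% rose in β-catΔEx3:Myc. Itgam kept its call (3.01 and 1.99), while none of the genes with the largest changes did. Their blocked values were -4.08 and -3.59 for Colec10, -2.01 and -2.03 for Vsig4, and -2.19 and -2.73 for Fcna. Cfp was at -1.89 in β-catΔEx3 and C1qa at -1.94 in β-catΔEx3:Myc. The part of the macrophage markers in these values was not tested.

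Of 26 other genes of the coagulation list, 11 fell and 1 rose in β-catΔEx3 (15.4% and 21.8% of all items). In β-catΔEx3:Myc, 12 fell and 1 rose (17.3% and 24.8% of all items). The medians were -0.57 and -0.82. The list is wider than clotting factors and also holds genes such as A1bg, Ahsg and Ecm1. A1bg had the largest fitted change (-5.93 ± 1.76 and -6.14 ± 1.63), but WT replicate 4 measured -6.21, within the mutant range, against -0.65, 3.21 and 2.54 in the other WT livers, and the blocked values were 0.05 and -0.09. Hgfac, a protease that activates hepatocyte growth factor, changed by -2.75 ± 0.32 and -2.13 ± 0.30, and Adamts13, which cleaves von Willebrand factor, by -1.83 ± 0.28 and -2.58 ± 0.26. Plat, tissue plasminogen activator, rose (1.73 ± 0.57 in β-catΔEx3 and 2.04 ± 0.53 in β-catΔEx3:Myc), and Ecm1 fell in β-catΔEx3:Myc by 2.12 on the log2 scale. Blocking on slide left 3 of the 26 lower in β-catΔEx3 (3.91% of all items). In β-catΔEx3:Myc it left 4 lower and 1 higher (4.44% and 4.23% of all items). Of the named genes, Hgfac in β-catΔEx3 (-2.91, adjusted p = 0.0299) and Adamts13 in β-catΔEx3:Myc (-2.88, adjusted p = 0.0236) kept their calls, and the other calls were lost.

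Of 19 liver transcription factors and IL-6 receptor subunits tested, 8 fell and 1 rose in β-catΔEx3 (15.4% and 21.8% of all items). In β-catΔEx3:Myc, 9 fell and 1 rose (17.3% and 24.8% of all items). Onecut1, a hepatocyte factor also called HNF6, measured -3.88, -3.64 and -3.47 in β-catΔEx3 livers, -4.74, -4.94, -4.23 and -4.82 in β-catΔEx3:Myc livers, and -0.34, 0.65, 1.28 and -1.52 in WT livers. It changed by -3.68 ± 0.53 (adjusted p = 0.000633) and -4.70 ± 0.49 (adjusted p = 7.53e-05). The mutant values lie in the range of the mutant C9 values, few of which were above background. The size of the Onecut1 change is thus uncertain. Foxa3 changed by -1.09 ± 0.23 and -1.34 ± 0.21. Il6st, the signalling subunit of the IL-6 receptor, was next in β-catΔEx3 (-0.87 ± 0.16), followed by Foxa1 (-0.84 ± 0.28), and in β-catΔEx3:Myc Dbp (-1.23 ± 0.38) and Nr1h4 (-1.17 ± 0.16). The 1 that rose, named after its values were seen, was Nr1i2 (0.76 ± 0.20 and 0.89 ± 0.19). With the slide block, 1 of the 19 fell in β-catΔEx3 (3.91% of all items) and 5 fell in β-catΔEx3:Myc (4.44% of all items). Blocked, Onecut1 was at -2.04 in β-catΔEx3 (adjusted p = 0.0778), where its call was lost, and at -3.21 in β-catΔEx3:Myc (adjusted p = 0.0253). In β-catΔEx3 the calls of Foxa3, Il6st and Foxa1 were lost too, and in β-catΔEx3:Myc that of Foxa3, while Dbp and Nr1h4 kept theirs. Nr1i2 lost both.

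Of 10 hepatocyte markers, 5 fell in β-catΔEx3 and 4 in β-catΔEx3:Myc, with medians of -0.45 and -0.51. Alb, albumin, was not called (-0.19 ± 0.17 and -0.30 ± 0.15). Their summed signal was 6513 to 8103 in β-catΔEx3, 6116 to 8745 in β-catΔEx3:Myc and 9719 to 12560 in WT livers. Of 9 platelet markers, 4 fell in β-catΔEx3 and 6 rose in β-catΔEx3:Myc, with 5 higher in β-catΔEx3:Myc than in β-catΔEx3, and their summed signal was 3.78 to 6.01 in β-catΔEx3, 12.5 to 19.8 in β-catΔEx3:Myc and 5.83 to 8.28 in WT livers. Endothelial markers fell in 5 of 9 in β-catΔEx3 and 6 of 9 in β-catΔEx3:Myc, with a summed signal of 66.5 to 82.0 in β-catΔEx3, 37.4 to 54.0 in β-catΔEx3:Myc and 131 to 152 in WT livers. Stellate cell markers fell in 2 of 9 in β-catΔEx3 and 6 of 9 in β-catΔEx3:Myc. Lymphocyte markers fell in 3 of 5 in both, and 1 rose in β-catΔEx3:Myc. Erythroid markers fell in 3 of 6 in β-catΔEx3, and 1 fell and 1 rose in β-catΔEx3:Myc. Of 7 neutrophil markers, 1 rose in β-catΔEx3, where the list median was -1.80, and 2 rose in β-catΔEx3:Myc, with a median of 1.83. Between the mutants the neutrophil median was 3.47 with 0 called. With slide as a block, 4 of the 7 were higher in β-catΔEx3:Myc than in β-catΔEx3 (0.512% of all items). Of 5 biliary markers 1 rose in β-catΔEx3 and 1 fell in β-catΔEx3:Myc. Blocking on slide left 1 of 10 hepatocyte markers lower in each mutant group, 0 platelet markers lower in β-catΔEx3 and 4 higher in β-catΔEx3:Myc, and 0 endothelial markers lower in β-catΔEx3 and 4 lower in β-catΔEx3:Myc. It left 1 stellate marker lower in β-catΔEx3 and 2 in β-catΔEx3:Myc, 2 neutrophil markers higher in β-catΔEx3:Myc, and 0 calls among lymphocyte, erythroid and biliary markers. Over all items, 15.4% fell and 21.8% rose in β-catΔEx3, and 17.3% fell and 24.8% rose in β-catΔEx3:Myc. With the block these shares were 3.91% and 4.25%, and 4.44% and 4.23%. Between the mutants, without the block, 0.130% of all items rose. Marker counts near these shares, such as 2 of 9 stellate markers lower in β-catΔEx3, say little about a cell type. The part of any of the listed cell types in the values of the 39 genes was not tested.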

How the data were processed

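Total RNA of 11 livers was labelled with Cy3 and hybridised to Agilent arrays. The authors deposited, for each array, a Feature Extraction file (version 10.7.1.1, per the file headers) with processed, background-subtracted signals as intensity in scanner units. A matrix of log2 values deposited by the authors had columns with medians of 4.33 to 4.36 that ranked the probes as the scanner signals did (lowest Spearman rho 1). It was used as an alternative. Its genes were not centred.

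Here, from 59305 non-control spots, 137 to 209 outlier spots an array were left out, and spots of a probe were averaged on the log2 scale. The 75th percentile of each array was subtracted. Of 55681 probes, those above background on 3 or more arrays (29695) entered the fit, and the brightest probe of a gene was used. Accessions were matched to RefSeq mouse symbols, which matched 26582 probes. The 22282 items (13964 with a symbol) were tested with limma 3.58.1 in R 4.3.3: group means over 11 arrays, 8 residual degrees of freedom, prior 2.52, 2-sided tests, Benjamini-Hochberg adjustment over all items and a threshold of 0.05. The fit was tested on simulated data with known answers. Alternatives were quantile normalization, a percentile over probes above background on all arrays, normexp (offset 50), other filters, the mean of a gene's probes, the deposited matrix, slide as a block, only 2 groups, and leaving out each array. An alternative added after the data were seen fitted every kept probe.

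All 39 genes are named; each other list names up to 4 called genes with the largest change. The 39 genes and the lists were chosen with earlier results of these data known. Of 151 listed genes, 148 matched a symbol. A listed item is not reported here. Promoter windows are from RefSeq, GRCm38.p6. Positions of the probes were not used here.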

Additional observations from a re-analysis of the deposited data

Results flagged for a closer look

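Of 78 combinations of a gene with β-catΔEx3:Myc or WT (the groups of 4), 9 held a liver far from the other 3. Some such livers occur by chance. The genes share the same arrays, so the 78 combinations are not independent, and their count was not tested against chance. In β-catΔEx3:Myc, replicate 4 was the highest for C8a (2.97, the others 0.93 to 1.15) and for C9 (-2.29, the others -6.44 to -6.23), and the lowest for Mbl1 (3.28, the others 3.52 to 3.53). Replicate 1 of β-catΔEx3:Myc was the lowest for Fgb (9.71, the others 10.21 to 10.29). WT replicate 4, the WT liver of slide 4, was the highest for Cfb (8.95, the others 8.51 to 8.55), Masp1 (1.37, the others 1.01 to 1.04), Serpinf2 (8.89, the others 8.40 to 8.47), Kng1 (10.79, the others 10.38 to 10.43) and Cpb2 (8.38, the others 7.98 to 8.03).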

How the results depend on the processing

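With slide as a block, 1819 items were called in β-catΔEx3 and 1932 in β-catΔEx3:Myc against WT, and 184 between the mutants, against 8290, 9396 and 75 without it. Coagulation genes called were then 7 in β-catΔEx3 and 5 in β-catΔEx3:Myc, against 17 and 17. Between the mutants, 35 items were called with the percentile over probes above background on all arrays, 42 without a filter, and 9 with only the 2 groups. Leaving out 1 array gave 10 to 181 items there, 181 without β-catΔEx3:Myc replicate 3 and 10 without β-catΔEx3 replicate 3. Dropping WT replicate 1, 2 or 3 gave 15, 34 or 34 items, dropping β-catΔEx3:Myc replicate 2 or 4 gave 16 or 22, and dropping β-catΔEx3 replicate 1 gave 115. It gave 11 to 17 coagulation genes in β-catΔEx3:Myc against WT, 11 without β-catΔEx3:Myc replicate 3. Complement genes called stayed within 1.5 times of 14 and 15 under every alternative run. Quantile normalization, normexp, the percentile over detected probes and the deposited matrix each called F9 lower in both mutant groups. They also each called Masp2 and Serpinc1 lower in β-catΔEx3 and Cpb2 lower in β-catΔEx3:Myc. In β-catΔEx3:Myc, normexp called F13b and Kng1 lower too (limma, adjusted p = 0.03825 and 0.0313), and the percentile over detected probes called Kng1 (0.0174). The percentile over detected probes moved the median of all items against WT by over 0.1, to -0.08 in β-catΔEx3 and -0.01 in β-catΔEx3:Myc, and the share of higher calls in β-catΔEx3 from 58.5% to 42.3% and in β-catΔEx3:Myc from 58.9% to 48.3%; 33 of the 39 genes were then called lower in each. Between the mutants that share moved from 38.7% to 57.1%. In β-catΔEx3:Myc against WT, Pros1 (-0.056) and Hrg (-0.12) were below 0 with slide as a block, and the third probe of Masp2 (0.34) was above 0; the cause was not tested. The slide block ended 14 of the calls of the 39 genes in each comparison with WT, beside these reversals. No paired analysis was possible because the labels give the replicates no numbers shared between groups. Dim signal over background limits C9 in the mutants.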
